A study of Mus musculus with 7 samples.

Results

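The 9 genes described here encode the core machinery that writes, maintains and removes 5-methylcytosine in mouse cells: the DNA methyltransferases Dnmt1, Dnmt3a, Dnmt3b and Dnmt3l, the maintenance factor Uhrf1, the dioxygenases Tet1, Tet2 and Tet3, and the glycosylase Tdg. They were chosen by symbol, and each symbol matched 1 row among the 52636 Ensembl genes of the count table. RNA was sequenced from 7 libraries, each made from 2 ng of RNA of a pool of 10 inner cell masses (ICMs), the inner cells left when immunosurgery strips the trophectoderm from a blastocyst. Embryos of the genotype Sox2Cre;CRAFR26 were collected at embryonic day 2.5 and kept for 24 h in KSOM medium with 250 nM PD173074, an FGF receptor inhibitor that both groups received. The tamoxifen group (4 libraries, time label 4 h) was given 250 nM 4-hydroxytamoxifen for 4 h to switch on an inducible cRAF construct (line cRAFR26) that activates ERK. The vehicle group (3 libraries, time label 0 h) was given ethanol for the same time. The mice derive from embryonic stem cells carrying the construct, as 2 clones: clone 4 gave 2 libraries per group, and clone 8 gave 1 vehicle and 2 tamoxifen libraries. A further vehicle sample was dropped at quality control, per the series text.

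Several features limit these groups as a model. The genotype pairs the construct with a Cre named for Sox2, and the labels do not say which cells it acts in. Embryos of both groups have the same labelled genotype, so no library shows tamoxifen without the construct. The labels give the cells as epiblast at embryonic day 3.5, whereas an ICM also holds primitive endoderm. In pooled tissue, fewer cells of a type and less RNA per cell cannot be told apart.

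As background, DNA methylation in mammals lies mostly on cytosines followed by guanine (CpG). Dnmt3a and Dnmt3b place new methyl groups, Dnmt3l is their catalytically inactive cofactor, and Uhrf1 recognises hemimethylated CpG after replication and recruits Dnmt1, which copies the mark to the new strand. Tet enzymes oxidise 5-methylcytosine, and Tdg excises the more oxidised forms so that base excision repair can restore cytosine. The pre-implantation embryo is known for a genome with very low methylation, which rises again in the epiblast after implantation as Dnmt3 genes are induced.

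The promoter windows of 3 genes are shown, picked after their values were seen. None of the 3 had an adjusted p under 0.05 (edgeR). Dnmt3b was the gene among the 9 whose groups did not overlap, which held for 8.45% of all genes. Dnmt3l followed Dnmt3b most closely of the 9 across libraries. Uhrf1 had a higher mean with tamoxifen, with overlapping groups. Each window runs from 250 bases before to 50 bases after a start site in RefSeq (GRCm38.p6), 5′ to 3′ on the plus strand, with each CpG in capitals. The Dnmt3b window is chr2:153649199-153649498, the first Dnmt3l window is chr10:78042037-78042336 and the first Uhrf1 window is chr17:56303087-56303386.
Dnmt3b: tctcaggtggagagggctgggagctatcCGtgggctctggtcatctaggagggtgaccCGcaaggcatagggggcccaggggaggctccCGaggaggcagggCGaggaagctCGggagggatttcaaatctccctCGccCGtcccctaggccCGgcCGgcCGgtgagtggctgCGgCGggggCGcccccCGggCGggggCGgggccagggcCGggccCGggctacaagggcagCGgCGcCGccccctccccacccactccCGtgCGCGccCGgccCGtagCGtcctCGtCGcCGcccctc
Dnmt3l: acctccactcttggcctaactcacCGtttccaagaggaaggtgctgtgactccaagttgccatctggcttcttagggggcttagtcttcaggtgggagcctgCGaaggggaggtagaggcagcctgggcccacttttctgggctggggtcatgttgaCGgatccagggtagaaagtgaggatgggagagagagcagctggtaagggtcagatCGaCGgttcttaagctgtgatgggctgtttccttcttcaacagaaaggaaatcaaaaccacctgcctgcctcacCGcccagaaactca
Uhrf1: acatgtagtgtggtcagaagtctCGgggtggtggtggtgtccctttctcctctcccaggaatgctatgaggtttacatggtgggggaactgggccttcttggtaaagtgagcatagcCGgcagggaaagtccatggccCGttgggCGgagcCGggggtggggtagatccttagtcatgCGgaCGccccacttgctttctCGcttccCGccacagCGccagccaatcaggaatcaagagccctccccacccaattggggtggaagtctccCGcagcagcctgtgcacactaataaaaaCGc

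These windows differ in how much of the enzymes' own substrate they hold. The Dnmt3b window holds 30 CpGs, more than 88.3% of the 32851 RefSeq promoter windows of that length, whose median is 7. The Uhrf1 window holds 12, and the Dnmt3l window holds 6, fewer than the median. The RefSeq table gives 16 windows for the 9 genes, since Dnmt1, Dnmt3a and Dnmt3l each have 3 starts and Uhrf1 has 2. The 3 Dnmt1 windows hold 2, 12 and 33 CpGs from the most upstream start to the most downstream. Dnmt1 is known to use different first exons in oocytes and in somatic cells, and the counts per gene sum over all starts, so these values cannot show which start was used. The letters CCGGAAG, an extended form of the site bound by many ETS factors downstream of ERK, occur in 0 of the 16 windows and in 8.86% of all windows. The shorter GGAA core of such sites was not counted, and it does occur in the windows printed above. The E2F-type letters TTCCCGC occur in 1 of the 16, the first Uhrf1 window, and in 4.6% of all windows. The E-box letters CACGTG occur in 3 of the 16 and in 7.15% of all windows, and the GC box letters GGGCGG in 12 of the 16 and in 35.7% of all windows. All were searched on both strands, and these matches describe letters only.

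The libraries held from 22981498 to 42294719 counts. One library stood apart: short genes, protein-coding with typical transcripts below 1000 nt, took 6.30% of counts in vehicle clone8_1 and 13.8% to 17.4% in the other 6. The 9 genes have typical transcripts from 1.55 kb (Dnmt3l) to 14.2 kb (Tet1), all above that length. All 9 passed the filter on low counts, with at least 613 counts per library for each gene except Tet3, which had 86 to 374. Values below are CPM, counts per 1000000 scaled with TMM factors.

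Compared per length, the maintenance factor Uhrf1 was the most abundant of the 9 transcripts and Tet3 the least. The order depends on the division by length, and evenness of coverage along long transcripts was not tested. Without that division, vehicle means were 226 CPM for Tet2 and 215 CPM for Uhrf1, and tamoxifen means were 242 and 275 CPM. The mean level over the 7 libraries was 72.4 ± 17.5 CPM per kb (SD, n = 7) for Uhrf1. Uhrf1 ranked first in each library, narrowly so in vehicle clone4_2 (59.3 against 59.0 CPM per kb for Dnmt3b). The de novo enzyme Dnmt3b followed at 40.2 ± 10.7 CPM per kb (SD, n = 7) and its cofactor Dnmt3l at 30.1 ± 10.3 CPM per kb (SD, n = 7). Dnmt3l lay below Dnmt3b in each library. Tet2 at 25.9 ± 2.29 CPM per kb (SD, n = 7) and Tdg at 23.3 ± 5.31 CPM per kb (SD, n = 7) came next. Dnmt3l was above Tet2 in 4 of 7 libraries, and Tet2 was above Tdg in 4 of 7, so these 3 neighbours did not differ beyond their spread.

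A lower tier held Tet1 at 12.6 ± 2.18 CPM per kb (SD, n = 7), the maintenance enzyme Dnmt1 at 11.8 ± 1.87 CPM per kb (SD, n = 7) and the de novo enzyme Dnmt3a at 9.23 ± 2.43 CPM per kb (SD, n = 7). Tdg exceeded Tet1 in all 7 libraries. Tet1 exceeded Dnmt1 in 5 of 7 libraries, and Dnmt1 exceeded Dnmt3a in 5 of 7, so the order within this tier is not fixed either. Tet3, the enzyme that oxidises the paternal genome of the zygote, stood far below at 0.732 ± 0.430 CPM per kb (SD, n = 7). Its level exceeded that of 25.9% of the 16248 genes tested, against 89.9% for Uhrf1 and 83.9% for Dnmt3b. Of the 3 Tet genes, Tet2 made up 59.8% to 69.5% of their summed level per kb in the 7 libraries and Tet3 0.669% to 3.56%. Dnmt3b made up 76.3% to 85.2% of the summed level of Dnmt3a and Dnmt3b.

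**Figure D1:**
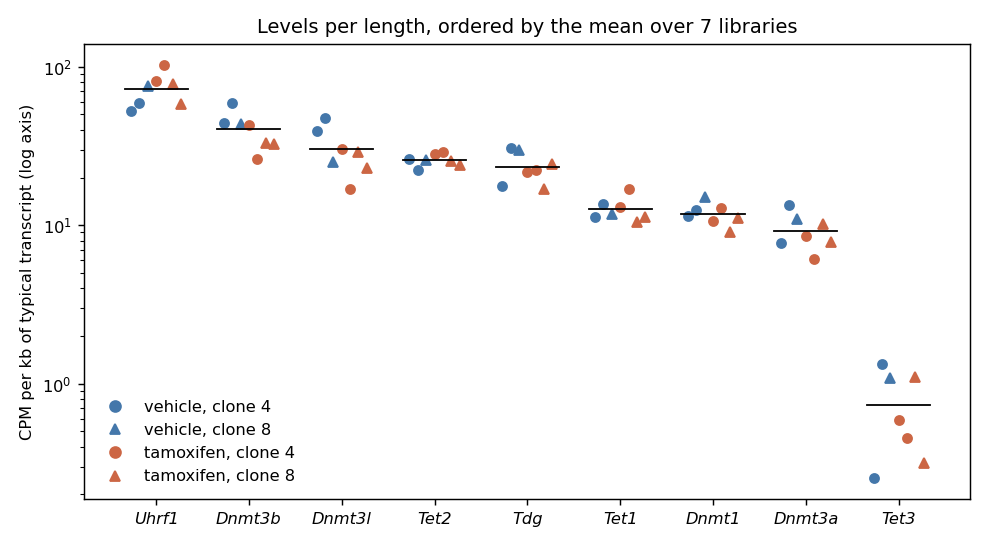
CPM per kb of typical transcript on a log axis for each of the 9 genes, 1 point per library (colour for the group, shape for the clone) and a line at the mean of the 7 libraries. Uhrf1 sits highest in each library (mean 72.4), Tet3 lowest (mean 0.732), and the points of Dnmt3l, Tet2 and Tdg intermingle.

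The 9 genes also differed in how steady they were. Tet2 varied least, with a coefficient of variation of 8.86% over the 7 libraries and a highest library 1.30 times the lowest. Tet3 varied most at 58.7%, and Dnmt3l followed at 34.1%. The median over the 8053 genes with a mean of at least 10 CPM was 20.5%, so Tet2, Dnmt1 (15.8%) and Tet1 (17.3%) lay below it and Dnmt3a (26.4%), Dnmt3b (26.7%), Uhrf1 (24.1%) and Tdg (22.8%) above it.

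The comparison of tamoxifen with vehicle asked whether these transcripts differ after 4 h of 4-hydroxytamoxifen, given to activate ERK through the construct. None of the 9 passed the test, and neither did any other gene: after Benjamini-Hochberg adjustment, 0% of 16248 genes lay below an adjusted p of 0.05 (edgeR, quasi-likelihood). DESeq2 called 4 genes, none of them among the 9. At an unadjusted p under 0.05 there was 1 of the 9, Dnmt3b, against 5.97% of all genes, or 3.28% counting those lower with tamoxifen. The groups did not overlap for 1 of the 9, again Dnmt3b, against 8.45% of all genes; 4.74% of all genes were lower in each tamoxifen library and 3.71% higher. Of the 9 estimates, 6 lay below 0 (66.7%), as did 48.3% of all genes, with a median log2 fold change of -0.29 for the 9 and 0.019 for all genes tested. The smallest adjusted p among the 9 was 0.794 and the largest 0.944 (edgeR).

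The de novo enzyme Dnmt3b (ENSMUSG00000027478, chromosome 2, 153649450 to 153687730, plus strand, GRCm38) was lower in each tamoxifen library than in each vehicle library. Vehicle clone4_1, clone4_2 and clone8_1 held 184, 244 and 179 CPM. Tamoxifen clone4_1 held 178 CPM, clone4_2 held 109, clone8_1 held 136 and clone8_2 held 135. The gap between the groups was small, since tamoxifen clone4_1 lay just under vehicle clone8_1. Means were 202 ± 36.2 CPM (SD, n = 3) and 139 ± 28.5 CPM (SD, n = 4). The log2 fold change was -0.54 ± 0.20 (SE), with unadjusted p = 0.0227 and adjusted p = 0.794 in edgeR. The fold was 0.689, with a 95% confidence interval of 0.506 to 0.938. Without vehicle clone4_2 the log2 fold change was -0.38 (unadjusted p = 0.111, edgeR), without tamoxifen clone4_2 it was -0.45 (unadjusted p = 0.0595, edgeR), and without tamoxifen clone8_2 it was -0.52 (unadjusted p = 0.0518, edgeR).

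The cofactor Dnmt3l (ENSMUSG00000000730, chromosome 10, 78041947 to 78063622, plus strand) had the lowest fold among the 9, with overlapping groups. Vehicle clone4_1, clone4_2 and clone8_1 held 61.0, 73.7 and 38.7 CPM, and tamoxifen clone4_1, clone4_2, clone8_1 and clone8_2 held 47.3, 26.4, 45.3 and 35.6 CPM. Both clone 4 vehicle libraries lay above all tamoxifen libraries, while the clone 8 vehicle library lay within their range. Means were 57.8 ± 17.7 CPM (SD, n = 3) and 38.6 ± 9.62 CPM (SD, n = 4). The log2 fold change was -0.58 ± 0.27 (SE), with unadjusted p = 0.0546 and adjusted p = 0.794 in edgeR. It was -0.81 (unadjusted p = 0.00820, edgeR) without vehicle clone8_1 and -0.37 without vehicle clone4_2.

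Dnmt3a (ENSMUSG00000020661, chromosome 12, 3806007 to 3914443, plus strand), the other de novo enzyme, also had a lower mean with tamoxifen. Vehicle clone4_1, clone4_2 and clone8_1 held 54.6, 94.5 and 77.6 CPM, and tamoxifen clone4_1, clone4_2, clone8_1 and clone8_2 held 60.1, 43.2, 72.2 and 55.3 CPM. The groups overlapped widely, because vehicle clone4_1 was lower than 3 of the 4 tamoxifen libraries. The log2 fold change was -0.39 ± 0.23 (SE), with unadjusted p = 0.124 and adjusted p = 0.799 in edgeR. It was -0.59 (unadjusted p = 0.0274, edgeR) without vehicle clone4_1 and -0.20 without vehicle clone4_2. Tamoxifen clone4_2 had the lowest value of all 7 libraries for Dnmt3a, Dnmt3b and Dnmt3l alike.

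**Figure D2:**
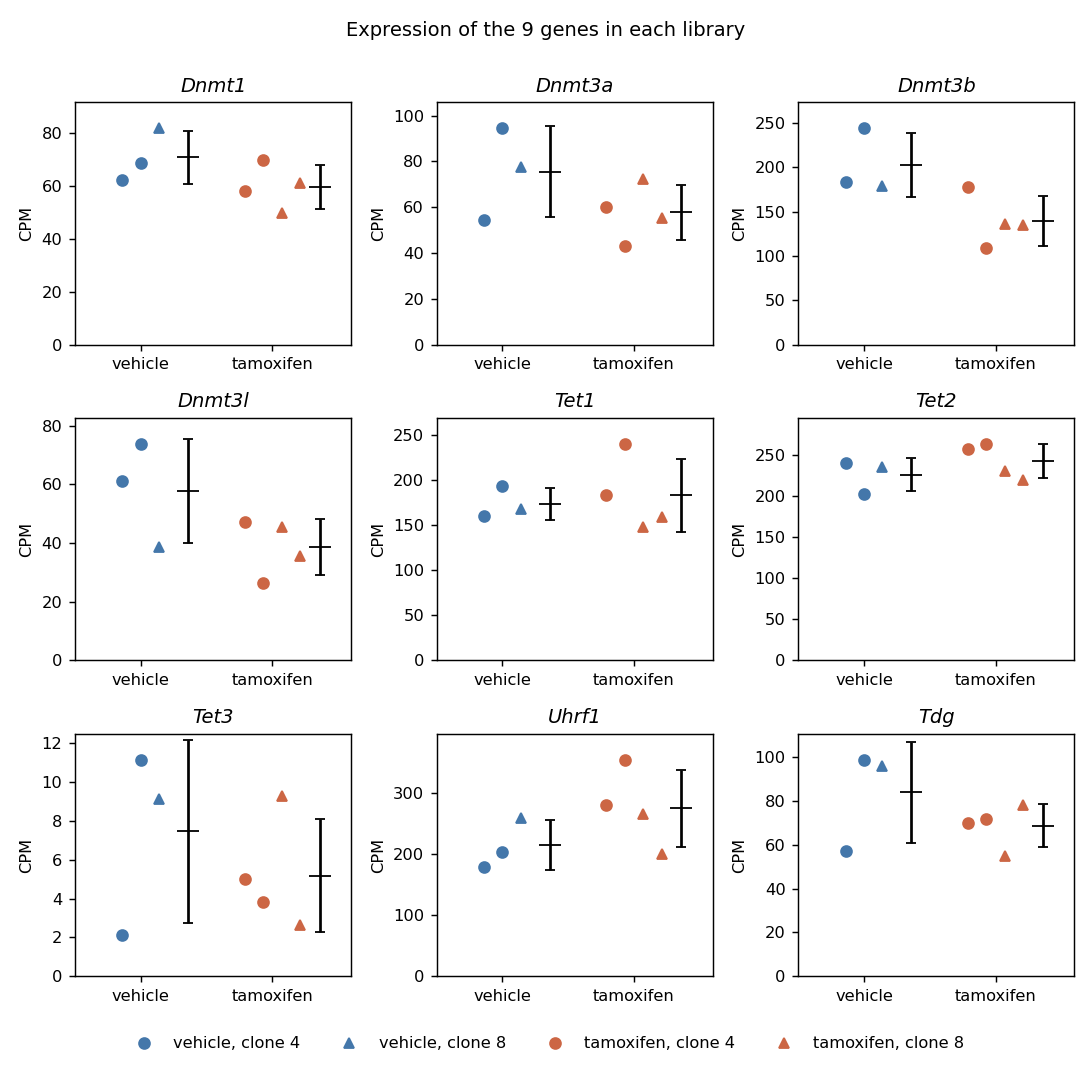
CPM of each of the 9 genes in each library, by group (colour) and clone (shape), with the mean ± SD beside each group; axes start at 0. Dnmt3b is the panel without overlap (179 to 244 CPM in vehicle, 109 to 178 CPM in tamoxifen), and Tet3 is the panel with the widest relative spread.

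Among the maintenance genes, Uhrf1 (ENSMUSG00000001228, chromosome 17, 56303321 to 56323486, plus strand) had a higher mean with tamoxifen and Dnmt1 a lower one, and neither passed the test. Uhrf1 held 180, 204 and 260 CPM in vehicle clone4_1, clone4_2 and clone8_1. It held 280, 355, 266 and 201 CPM in tamoxifen clone4_1, clone4_2, clone8_1 and clone8_2. Tamoxifen clone8_2 lay among the vehicle libraries, and the other 3 lay above them all. Means were 215 ± 40.9 CPM (SD, n = 3) and 275 ± 63.3 CPM (SD, n = 4). The log2 fold change came to 0.36 ± 0.22 (SE), with unadjusted p = 0.128 and adjusted p = 0.799 in edgeR. The estimate was 0.20 without tamoxifen clone4_2, 0.23 without vehicle clone4_1 and 0.51 without vehicle clone8_1.

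Dnmt1 (ENSMUSG00000004099, chromosome 9, 20907209 to 20959888, minus strand) held 62.2, 68.5 and 81.7 CPM in vehicle clone4_1, clone4_2 and clone8_1. In tamoxifen clone4_1, clone4_2, clone8_1 and clone8_2 it held 57.9, 69.8, 49.7 and 60.9 CPM. Tamoxifen clone4_2 lay among the vehicle libraries, and the other 3 lay below them all. The log2 fold change was -0.25 ± 0.18 (SE), with unadjusted p = 0.190 and adjusted p = 0.803 in edgeR. The 95% confidence interval of the fold ran from 0.640 to 1.11, and the log2 estimate was -0.061 without both libraries numbered clone8_1.

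The oxidising enzymes Tet1 (ENSMUSG00000047146, chromosome 10, 62804570 to 62908996, minus strand) and Tet2 (ENSMUSG00000040943, chromosome 3, 133463679 to 133545139, minus strand) were close to even between the groups. Tet1 held 160, 193 and 167 CPM in vehicle clone4_1, clone4_2 and clone8_1 and 184, 240, 148 and 159 CPM in tamoxifen clone4_1, clone4_2, clone8_1 and clone8_2. Tet2 held 240, 202 and 235 CPM in the same vehicle libraries and 257, 263, 230 and 219 CPM in the same tamoxifen libraries. The lowest vehicle library of Tet2 lay below all tamoxifen libraries and the groups otherwise intermingled. The fold of Tet2 was 1.07 with a 95% confidence interval of 0.850 to 1.36, the narrowest of the 9 on the log2 scale. That of Tet1 was 1.05 with an interval of 0.780 to 1.42. Unadjusted p-values were 0.514 and 0.711 (edgeR). The estimate for Tet1, 0.074 on the log2 scale, was -0.096 without tamoxifen clone4_2.

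Tet3 (ENSMUSG00000034832, chromosome 6, 83362373 to 83459084, minus strand) was low and uneven. It held 2.13, 11.1 and 9.11 CPM in vehicle clone4_1, clone4_2 and clone8_1 and 4.997, 3.84, 9.28 and 2.65 CPM in tamoxifen clone4_1, clone4_2, clone8_1 and clone8_2. The lowest and the highest value both came from vehicle libraries of clone 4. With a fold of 0.695 and a 95% confidence interval of 0.287 to 1.68, a difference of either direction could not be resolved at this spread. The log2 estimate of -0.52 ± 0.57 (SE) ran from -0.98 without vehicle clone4_1 to -0.12 without vehicle clone4_2 as single libraries were left out.

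The glycosylase Tdg (ENSMUSG00000034674, chromosome 10, 82629828 to 82650799, plus strand) held 57.2, 98.8 and 95.9 CPM in vehicle clone4_1, clone4_2 and clone8_1. It held 70.1, 71.9, 55.0 and 78.4 CPM in tamoxifen clone4_1, clone4_2, clone8_1 and clone8_2. Vehicle clone4_1 lay near the bottom and the other vehicle libraries above all tamoxifen libraries. The log2 fold change was -0.29 ± 0.22 (SE), with unadjusted p = 0.222 and adjusted p = 0.807 in edgeR, and it was -0.52 without vehicle clone4_1, -0.16 without vehicle clone4_2, -0.19 without vehicle clone8_1 and -0.19 without tamoxifen clone8_1.

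**Figure D3:**
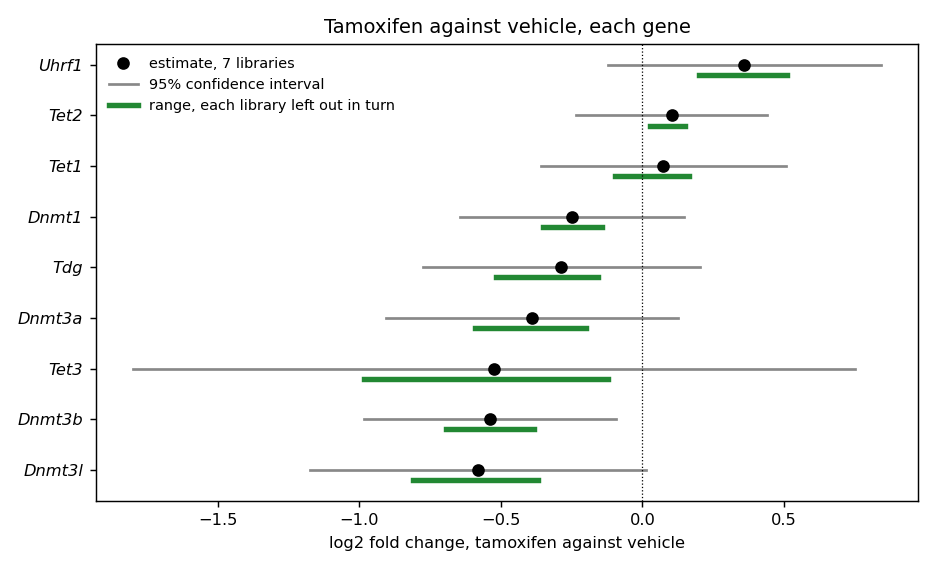
Log2 fold change of each gene, tamoxifen against vehicle, with its 95% confidence interval (grey) and the range of estimates when each library was left out in turn (green). The interval lies below 0 for Dnmt3b only (estimate -0.54), and the Tet2 interval is the narrowest.

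Reads of related or overlapping genes could bear on these values, because the counting program and its strand setting are not given in the sources used here. Dnmt3c, a rodent copy of Dnmt3b active in the male germline, shares 11.5% of the 50-mers of the longest Dnmt3b transcript, and the counts listed for it were at most 16 per library. Tdg shares 47.4% of its 50-mers with the pseudogene Tdg-ps and 25.4% with Gm9855, so Tdg reads that map to several places may have been dropped or divided, and the level of Tdg is uncertain. Tdg-ps held at most 5 counts per library and Gm9855 from 1 to 107. Uhrf1 shares 18.0% of its 50-mers with Gm5648, which held at most 11 counts. On the opposite strand, Dnmt3aos held at most 11 counts, Dnmt3bos at most 31, and Aire, which overlaps Dnmt3l, at most 132.

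Ratios between genes within a library do not depend on the scaling of that library, and they are given as descriptions without a test, having been chosen after the values of the genes were known. The ratio of Uhrf1 to Dnmt1 per kb was 4.58, 4.72 and 5.03 in vehicle clone4_1, clone4_2 and clone8_1. It was 7.66, 8.05, 8.48 and 5.21 in tamoxifen clone4_1, clone4_2, clone8_1 and clone8_2, all above the vehicle libraries. The ratio of Tet1 to Dnmt3b per kb was 0.254, 0.231 and 0.272 in the vehicle libraries and 0.302, 0.644, 0.319 and 0.344 in the tamoxifen libraries, again without overlap. Such a ratio moves with either gene. Tet1 by itself overlapped between the groups and Dnmt3b by itself did not, so the ratio of Tet1 to Dnmt3b is not separate from the Dnmt3b values. The share of all gene pairs whose ratio separates the groups was not counted, so no result is drawn from these separations. The ratio of Dnmt3b to Dnmt3a overlapped between groups, at 3.95 to 5.75 for vehicle and 3.22 to 5.05 for tamoxifen, and so did that of Dnmt3l to Dnmt3b, at 0.575 to 0.884 and 0.648 to 0.887.

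**Figure D4:**
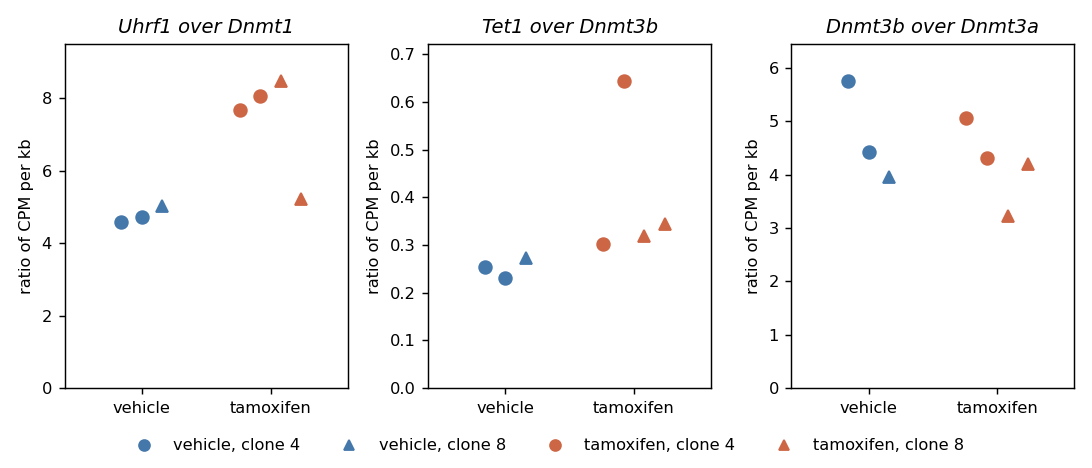
Ratios of CPM per kb within each library for Uhrf1 over Dnmt1, Tet1 over Dnmt3b and Dnmt3b over Dnmt3a, by group (colour) and clone (shape); axes start at 0. The first 2 ratios are higher in each tamoxifen library than in each vehicle library (for Uhrf1 over Dnmt1, 5.21 to 8.48 against 4.58 to 5.03), and the last overlaps. The ratios were chosen after the values were known and were not tested.

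Estimates within each clone are given for Uhrf1, Dnmt3l and Dnmt3b, and no difference between the clones passed adjustment for any of the 9 genes. An unadjusted interaction p under 0.05 was found for 1 of the 9, Uhrf1, against 14.8% of all genes, and the clone 8 side rests on a single vehicle library. In clone 4, Uhrf1 was higher in both tamoxifen libraries than in both vehicle libraries, and the log2 fold change in those 4 libraries was 0.72 ± 0.17 (SE), with unadjusted p = 0.00389 and adjusted p = 0.550 in edgeR. In clone 8 the mean log2 CPM of the 2 tamoxifen libraries differed from the single vehicle library by -0.17. The difference between the clones, tested as an interaction, was -0.88 ± 0.31 (SE), with unadjusted p = 0.0220 and adjusted p = 0.244 in edgeR. For Dnmt3l the clone 4 value was -0.88 ± 0.29 (SE), with unadjusted p = 0.0201 and adjusted p = 0.576 in edgeR. Its clone 8 difference was 0.051, and the interaction was 0.93 ± 0.49 (SE), with unadjusted p = 0.0906 and adjusted p = 0.420 in edgeR. Dnmt3b was lower with tamoxifen in both clones, by -0.40 on the log2 scale in clone 8 and, in clone 4, by -0.59 ± 0.26 (SE), with unadjusted p = 0.0561 in edgeR. Within clone 4, 0% of 16060 genes were called and 7.87% had an unadjusted p under 0.05.

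None of the 9 genes was called in the interaction, where 3.16% of all genes were (514 of 16248). That count was 52 without tamoxifen clone4_2, 107 without tamoxifen clone4_1 and 267 without vehicle clone4_1, and none of the 9 was called in those fits. Clone 8 has 1 vehicle library, the one poor in short transcripts, so clone and that library cannot be told apart. For Dnmt1 and Tdg, the differences of mean log2 CPM were -0.038 and -0.083 in clone 4 and -0.57 and -0.55 in clone 8, with interaction p-values of 0.144 and 0.415 (unadjusted, edgeR).

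The genes nearest to Dnmt3b, Dnmt3l and Tet1 in pattern were found as those with the smallest root-mean-square difference of mean-centred log2 CPM over the 7 libraries, among 8052 other genes with a mean of at least 10 CPM. Pak6 (0.092), Cc2d1a (0.131) and Tdrp (0.134) were nearest to Dnmt3b, where the median gene lay at 0.444. Errfi1 (0.144), Socs1 (0.148) and Mtfp1 (0.151) were nearest to Dnmt3l. Cpt1a (0.064) and Slc25a20 (0.071) were nearest to Tet1. Errfi1 and Socs1 are known as feedback inhibitors of growth factor receptors and of cytokine signalling, and Cpt1a and Slc25a20 as parts of the carnitine shuttle. Among the 9 genes themselves, Dnmt3b was 15th in nearness to Dnmt3l, and Dnmt3l was 74th in nearness to Dnmt3b. Dnmt3a was 172nd in nearness to Dnmt3b and 251st to Dnmt3l, while Uhrf1 was 6957th in nearness to Dnmt3l. All these distances rest on the same 7 libraries.

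Around the 9 genes, 76 further genes of the pathway were taken from 7 lists, of which 73 were tested. None had an adjusted p under 0.05 (smallest 0.794, edgeR). Of the 73, 36 were higher and 37 lower, with a median log2 fold change of -0.037 beside 0.019 for all genes tested. At an unadjusted p under 0.05 there were 4 higher and 4 lower (10.96%, against 5.97% of all genes), and the groups did not overlap for 9 (12.3%, against 8.45% of all genes).

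The partners of maintenance methylation had a median of 0.13, with 8 of 10 genes higher and 2 at an unadjusted p under 0.05. Dppa3, also known as Stella, which can displace Uhrf1 from chromatin, was by far the most abundant of the list at 4507 CPM per kb. It held 3719, 3222 and 1819 CPM in vehicle clone4_1, clone4_2 and clone8_1 and from 3847 to 4766 CPM in the tamoxifen libraries, without overlap. Its log2 fold change was 0.58 ± 0.23 (SE), with unadjusted p = 0.0270 in edgeR. Its typical transcript is 833 nt long, in the class that was poor in vehicle clone8_1, and without that library the estimate was 0.33 (unadjusted p = 0.0213, edgeR). Uhrf2, the paralog of Uhrf1, was at 3.42 ± 1.35 CPM (SD, n = 3) and 7.53 ± 2.89 CPM (SD, n = 4) without overlap, and the log2 estimate was 1.14 ± 0.41 (SE), with unadjusted p = 0.0209 in edgeR. It was 0.56 without both libraries numbered clone8_1. The histone demethylase Kdm1a was next by p at 0.45 ± 0.28 (SE), and 0.16 without tamoxifen clone8_1, and Cdca7l was the least abundant at 0.808 CPM per kb.

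The genes listed as methyl-CpG binding proteins had a median of -0.096, with 3 of 8 genes higher and none at an unadjusted p under 0.05. The smallest p belonged to Mbd2 (0.86 ± 0.48, SE), Mbd3 (0.39 ± 0.28, SE) and Mbd4 (-0.29 ± 0.23, SE), with an estimate of 0.31 for Mbd2 without both libraries numbered clone8_1. Without tamoxifen clone8_1 the estimates were 0.087 for Mbd3 and -0.16 for Mbd4. Mbd3, a subunit of the NuRD complex, was the most abundant at 27.1 CPM per kb, and Zbtb33 (Kaiso) the least at 0.123. In base excision repair, which completes demethylation after Tdg, the median was -0.050, with 6 of 13 genes higher and none at an unadjusted p under 0.05. Gadd45a, with a typical transcript of 716 nt, was at 1.09 ± 0.61 (SE) and at 0.0045 in the clone 4 libraries alone. The ligase Lig3 was at -0.34 ± 0.24 (SE). The Lig3 groups did not overlap (217 to 246 CPM and 102 to 208 CPM), and its estimate was -0.14 without tamoxifen clone8_1. The uracil glycosylase Ung was the most abundant at 131 CPM per kb and Neil2 the least at 0.123.

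The genes of methyl donor synthesis, which supply S-adenosylmethionine, had a median of -0.10, with 4 of 10 higher and 1, Mat2a, at an unadjusted p under 0.05. Mat2a, the enzyme that makes S-adenosylmethionine, held 279, 387 and 323 CPM in vehicle clone4_1, clone4_2 and clone8_1 and 237 to 265 CPM in the tamoxifen libraries. All tamoxifen libraries lay below all vehicle libraries. Its log2 fold change was -0.39 ± 0.16 (SE), with unadjusted p = 0.0323 in edgeR. Mtrr was at -0.24 ± 0.19 (SE), and -0.11 without tamoxifen clone8_1. Mthfd1 was the most abundant at 103 CPM per kb. Among genes that protect imprints through KRAB zinc finger proteins, 6 of 9 were higher, with a median of 0.096, and 2 had an unadjusted p under 0.05, 1 in each direction. Zfp445, which binds imprinted regions beside Zfp57, was at 35.4 to 42.0 CPM without tamoxifen and 21.1 to 30.7 CPM with it, without overlap, and the log2 estimate was -0.64 ± 0.19 (SE), with unadjusted p = 0.00775 in edgeR. Cbx3, a heterochromatin protein, lay the other way at 27.3 to 43.4 CPM and 46.0 to 59.4 CPM, a log2 difference of 0.64 ± 0.20 (SE), with unadjusted p = 0.0103 in edgeR. Morc3 was at -0.42 ± 0.25 (SE), and -0.23 without vehicle clone4_1. Cbx1 was the most abundant at 122 CPM per kb, and Atf7ip the least at 8.76.

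Of the genes known to regulate Dnmt3 and Tet genes or their proteins, 10 of 11 were tested, 4 were higher, 2 were lower at an unadjusted p under 0.05, and the median was -0.039. Prdm14, a repressor of Dnmt3b in naive pluripotent cells, held 23.7, 38.8 and 31.8 CPM in vehicle clone4_1, clone4_2 and clone8_1. It held 63.2, 68.7, 51.0 and 22.4 CPM in tamoxifen clone4_1, clone4_2, clone8_1 and clone8_2. The first 3 tamoxifen libraries lay above all vehicle libraries and clone8_2 lay below them all, and the log2 fold change was 0.71 ± 0.35 (SE), with unadjusted p = 0.0711 in edgeR, and 1.07 in the clone 4 libraries alone. Lin28a, an RNA-binding protein reported to recruit Tet1, was at 57.1 ± 17.9 CPM (SD, n = 3) and 31.0 ± 11.6 CPM (SD, n = 4), a log2 estimate of -0.88 ± 0.32 (SE), with unadjusted p = 0.0192 in edgeR and overlapping groups. Ogt, the O-GlcNAc transferase that binds Tet proteins, was at 160 to 207 CPM and 99.2 to 151 CPM without overlap. Its log2 fold change was -0.47 ± 0.18 (SE), with unadjusted p = 0.0299 in edgeR, and -0.19 in the clone 4 libraries alone. Nanog was the most abundant of the list at 271 CPM per kb, and Cxxc4, at most 1 count per library, was the gene not tested.

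Germline genes whose promoters are silenced by methylation after implantation were each detected in at least 1 library, mostly at low levels. Of 15 genes 13 were tested, 5 were higher, 1 of them at an unadjusted p under 0.05, and the median was -0.16. Sycp3, a protein of the meiotic chromosome axis, was the most abundant at 48.5 CPM per kb (35.3 to 96.8 CPM), and Tdrd1 the least, with at most 15 counts per library. Ddx4, the germ cell RNA helicase, held 1.98, 1.84 and 1.22 CPM in vehicle clone4_1, clone4_2 and clone8_1 and 2.96 to 5.99 CPM in the tamoxifen libraries, without overlap. Its log2 estimate was 1.28 ± 0.43 (SE), with unadjusted p = 0.0135 in edgeR. Slc25a31 (-1.03 ± 0.78, SE, and 0.078 in the clone 4 libraries alone) and Rhox5 (-0.68 ± 0.59, SE) came next by p. Rhox5 has a transcript of 633 nt and was at 3.58 CPM in vehicle clone8_1, while vehicle clone4_1 had 19.8 and vehicle clone4_2 had 18.4, and its estimate was -1.14 without vehicle clone8_1 and -0.24 with clone as a term.

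**Figure D5:**
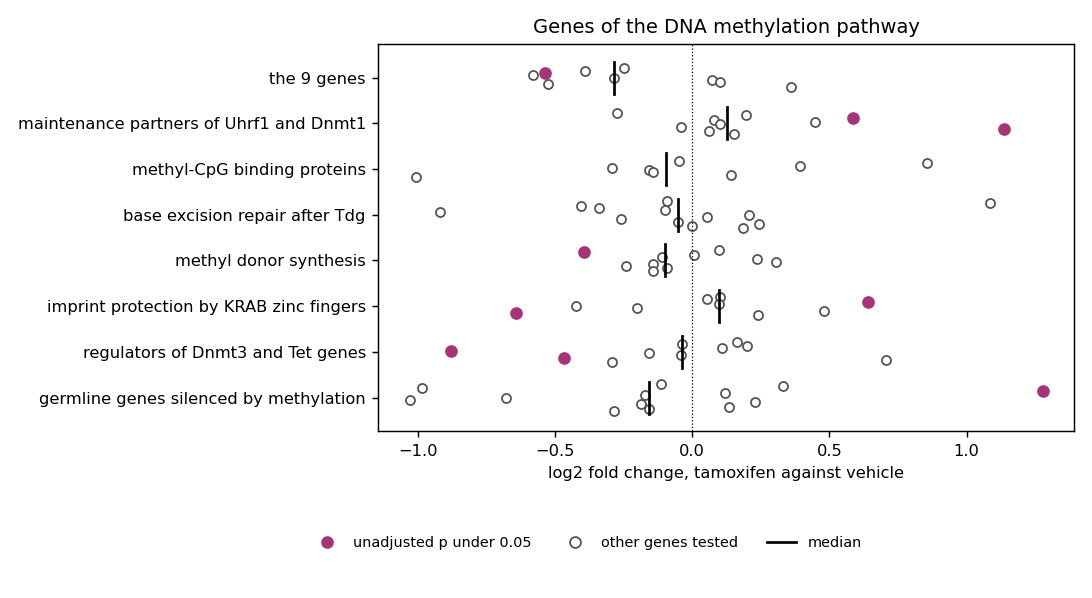
Log2 fold change, tamoxifen against vehicle, of the 9 genes and of the tested genes of 7 pathway lists, 1 point per gene, filled where the unadjusted p was under 0.05, with a bar at each median. Points lie on both sides of 0 in each list, and the medians of the 7 pathway lists lie between -0.16 and 0.13.

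Markers of other cells were present beside these genes. The 10 naive epiblast markers summed to 1665 to 2044 CPM in vehicle and 1708 to 2199 CPM in tamoxifen libraries, and all were detected, with 7 of 9 tested genes higher, 1 of them at an unadjusted p under 0.05, and a median log2 fold change of 0.37. The 10 trophectoderm markers summed to 8530 to 11228 CPM in vehicle and 6546 to 9534 CPM in tamoxifen libraries. Krt8 and Krt18 were the most abundant of them, with vehicle means of 3176 and 3320 CPM. Sums over different genes do not measure shares of cells. Of the trophectoderm markers, 10 of 10 had lower estimates with tamoxifen, 3 of them at an unadjusted p under 0.05. The 10 primitive endoderm markers summed to 845 to 1148 CPM and 884 to 1031 CPM, with 6 of 9 tested genes higher and a median log2 fold change of 0.49. Of these, 2 were higher without overlap at an unadjusted p under 0.05, and both are named after their values were seen: Sox17, at 2.96 ± 2.30 CPM (SD, n = 3) and 17.7 ± 7.93 CPM (SD, n = 4), and Lama1, at 4.21 ± 0.882 CPM (SD, n = 3) and 10.8 ± 4.17 CPM (SD, n = 4). Their log2 estimates were 2.58 (unadjusted p = 0.00617, adjusted p = 0.794, edgeR) and 1.35 (unadjusted p = 0.00394, adjusted p = 0.794, edgeR). The 3 primitive endoderm markers with lower estimates were Pdgfra (-0.50), Dab2 (-0.21) and Fgfr2 (-0.067), each with overlapping groups. Dab2 was the most abundant of that list, at 560 to 823 CPM. Summed over 10 oocyte transcripts, each library held 9.18 to 24.1 CPM, and 3 of these genes were at 0 in at least 1 library. Among the 8 tested, 6 had lower estimates with tamoxifen, and the median log2 fold change was -0.19. Gdf9 was the 1 at an unadjusted p under 0.05, lower without overlap. Its means were 2.45 and 0.426 CPM (unadjusted p = 0.00813, adjusted p = 0.794, edgeR). A list of 10 feedback regulators and other targets of ERK summed to 299.8 to 391 CPM in vehicle libraries. The sum was 425 to 483 CPM in tamoxifen libraries, without overlap. How often sums of other genes separate the groups was not tested. Of the 10, 7 were higher, 1 of them, Spry2, at an unadjusted p under 0.05, and none was called (edgeR). Spry2 had means of 64.8 CPM in vehicle and 118 CPM in tamoxifen libraries. The 3 lower were Dusp6 (-0.17), Epha2 (-0.23) and Epha4 (-0.13). Transcripts of both sex chromosomes' markers were present in each pool: Xist was at 37.8 to 124 CPM and the Y-linked Ddx3y at 28.2 to 90.4 CPM. Among 5 sex-linked genes, the 4 Y-linked had higher estimates with tamoxifen and Xist a lower one (-0.49), all with overlapping groups. Eif2s3y was the 1 at an unadjusted p under 0.05 (0.0340, edgeR), and none was called. The part of these cells, and of the sex of the embryos, in the values of Dnmt3b and the other 8 genes was not tested.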

How the data were processed

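Raw counts per Ensembl gene were used as the authors deposited them, in 1 table with a column per library. The submitters' processing notes name bcl2fastq 2.19.1, STAR 2.5.3a and mm10; the counting program, annotation release and strand setting are not given in the sources used here. Symbols, coordinates and lengths come from GENCODE M21 (GRCm38), which matched 52489 of 52636 gene IDs. A typical length is the median over basic protein-coding transcripts, or over other transcripts where a gene has none.

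Groups were taken from the sample titles. Counts were tested with edgeR 4.0.16 (R 4.3.3): TMM factors, the expression filter by group, the quasi-likelihood test on condition alone, and Benjamini-Hochberg adjustment over 16248 genes, called under 0.05. The biological coefficient of variation was 0.456. The clone interaction used clone, condition and their product. Log2 CPM values used a prior count of 2. Confidence intervals (95%) use the standard errors of that test. DESeq2 1.42.0 and limma 3.58.1 (voom) were alternatives, and the procedures were tested on simulated data.

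The 9 genes and the lists were chosen with earlier results of these data known. Named pathway genes are the 3 with the smallest p and the most and least abundant per kb in each list. Genes near Dnmt3b, Dnmt3l and Tet1 in pattern are the 3 at the smallest distance. Some genes that these rules name are not reported here. Libraries of 1 group are separate pools of embryos, and p-values measure the spread between pools. Low-input amplification without molecular identifiers means that counts are not independent molecules.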

Additional observations from a re-analysis of the deposited data

Results flagged for a closer look

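In 63 groups of 4 tamoxifen libraries, 5 held a library far from the other 3, and chance alone marks about 1 group in 20. For the ratio of Tet1 to Dnmt3b per kb, tamoxifen clone4_2 stood at 0.644 and the others at 0.302 to 0.344. That library had both the highest Tet1 and the lowest Dnmt3b of the 7. Lig3 stood at 102 CPM in tamoxifen clone8_1 and at 204 to 208 CPM in the others. Mbd3 stood at 66.2 CPM in tamoxifen clone8_1 and at 30.9 to 37.0 CPM in the others. Cbx3 stood at 46.0 CPM in tamoxifen clone8_2 and at 57.5 to 59.4 CPM in the others. Tdrd1 stood at 0.332 CPM in tamoxifen clone4_1 and at 0 to 0.036 CPM in the others, which is at most 15 counts.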

How the results depend on the processing

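None of the 9 genes was called under any of the 16 alternatives. Of 144 values of the 9 genes under these alternatives, 143 kept their direction; the exception was Tet1, which ranged from -0.096 (without tamoxifen clone4_2) to 0.16 when a library was left out. Over all genes the count called was 4 with DESeq2, 2 without both libraries numbered clone8_1 and 0 otherwise. The number of the 9 with an unadjusted p under 0.05 was 2 with DESeq2, 2 without a filter on low counts, 3 without both libraries numbered clone8_1 and 2 in the clone 4 libraries only, and it ranged from 0 to 3 when each library was left out in turn. With the replicate label as a block it was 0, with Dnmt3b at -0.54 (unadjusted p = 0.0981, edgeR); the labels do not tie equal numbers to shared embryos, deviations of equally numbered libraries correlated at 0.0078, 0.021 and -0.068, and the replicate block called 0 genes. The interaction called 1016 genes with DESeq2, 991 without a filter on low counts and from 52 to 695 when a library was left out. Interactions near 0 turned sign: when a library was left out, Dnmt3a ranged from -0.21 (without vehicle clone4_2) to 0.56, Dnmt3b from -0.15 (without tamoxifen clone4_2; -0.044 without vehicle clone4_2) to 0.53, and Tet3 from -1.67 to 0.68 (without vehicle clone4_1; also 0.13 without tamoxifen clone4_1 and 0.61 without tamoxifen clone8_2). With scaling from genes of at least 1000 nt the Tet3 interaction was 0.059. Of 336 values of 21 named pathway genes, 335 kept their direction; Slc25a31 was 0.078 in the clone 4 libraries only. With the longest transcript as length, Dnmt3a was at 6.75 CPM per kb. The causes were not tested. With 3 and 4 pools, the spread between pools limits what could be called.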

Other observations

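Counts were listed for Dnmt3c, the rodent copy of Dnmt3b, in vehicle clone4_1 (16) and vehicle clone8_1 (9) and were 0 in the other 5 libraries, too few for a comparison. Gm9855, a pseudogene that shares sequence with Tdg, held 84 counts in vehicle clone4_1, 107 in vehicle clone8_1 and 50 in tamoxifen clone8_2, and 1 to 3 in the other 4. Both were singled out after their values were seen.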
